A study of Homo sapiens with 6 samples.

Results

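Immunoglobulin-superfamily adhesion molecules known in melanoma were examined in the human melanoma cell line A375 with and without RIPK4. The members were chosen by gene symbol: CEACAM1, MCAM, L1CAM, ALCAM, ICAM1, VCAM1, NCAM1, CADM1, JAM3 and NRCAM. Of these 10 genes, 9 had a row among the 20851 genes of the count table, and VCAM1 was not analysed here. RNA-seq libraries from poly(A)-selected RNA were compared between 3 A375neg and 3 A375RIPK4.KO samples, described as biological replicates. Both sublines were made from A375 cells with CRISPR/Cas9 and lentiviral guide RNAs. A375neg received a nontargeting guide and is labelled as the GFP control, and A375RIPK4.KO received a guide to RIPK4, a receptor-interacting serine/threonine kinase. The knockout libraries came from 1 clone, so loss of RIPK4 and other properties of that clone cannot be told apart.

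These proteins carry extracellular immunoglobulin-like domains that bind the same molecule on a neighbouring cell, other family members, integrins or matrix proteins. Most pass the membrane once and reach the cytoskeleton and signalling proteins through short cytoplasmic tails. In melanoma, several of them are known as surface molecules that are gained or lost between melanocytes, primary tumours and metastases, MCAM and CEACAM1 among them.

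Total counts ranged from 21882863 to 26694140 per library. RIPK4 had 319, 368 and 404 raw counts in the A375neg libraries and 42, 51 and 61 in the A375RIPK4.KO libraries, a log2 fold change of -2.69 (SE 0.17). Among melanocytic markers, SOX10 had 7448 to 10056 raw counts per library and MITF 288 to 535, whereas PMEL had 3 to 22, and 5 of the 8 markers had a row. At an adjusted p under 0.05 and a difference of 1.5-fold or more, edgeR called 2 of these 5 lower in the knockout, S100B and S100A1, and DESeq2 called 1, where edgeR called 4.65% of all tested genes lower. The sum of the 5 was 9490 to 10258 normalised counts in A375neg and 8171 to 8589 in A375RIPK4.KO. A375RIPK4.KO replicate 2 stood apart from the other libraries: its deviations followed exon length with a Spearman correlation across genes of -0.26, against -0.02 to 0.15 elsewhere. It differed from the other A375RIPK4.KO libraries by a chi-square of 15.4 and 18.4 per gene, against 5.32 to 7.1 for the replicate pairs without it.

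Promoter sequence is shown for the pair of members that fell most and for MCAM and ICAM1, which fell by similar amounts. Each is the 250 bases before a RefSeq transcription start (GRCh38.p14), written 5′ to 3′ on the gene's strand: chr19:42528482-42528731 for CEACAM1 (minus strand), chr7:108456437-108456686 for NRCAM (minus strand, the first of 3 listed starts), chr11:119317131-119317380 for MCAM (minus strand) and chr19:10270870-10271119 for ICAM1 (plus strand). Capitals mark matches on either strand to ACAAAG (the SOX core), CATGTG (the core bound by MITF), TGACGTCA (the cyclic AMP response element), GGGCGG (the GC box) or TATAAA (the TATA box).
CEACAM1: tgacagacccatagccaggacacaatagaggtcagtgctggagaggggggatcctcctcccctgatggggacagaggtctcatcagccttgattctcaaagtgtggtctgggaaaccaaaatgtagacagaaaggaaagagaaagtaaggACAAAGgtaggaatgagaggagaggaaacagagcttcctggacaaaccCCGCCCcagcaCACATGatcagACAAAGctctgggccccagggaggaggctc
NRCAM: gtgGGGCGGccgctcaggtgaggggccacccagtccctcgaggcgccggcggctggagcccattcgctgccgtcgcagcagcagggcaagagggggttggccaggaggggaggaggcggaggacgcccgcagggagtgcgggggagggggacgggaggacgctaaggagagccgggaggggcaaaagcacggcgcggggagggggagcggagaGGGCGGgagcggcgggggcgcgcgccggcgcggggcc
MCAM: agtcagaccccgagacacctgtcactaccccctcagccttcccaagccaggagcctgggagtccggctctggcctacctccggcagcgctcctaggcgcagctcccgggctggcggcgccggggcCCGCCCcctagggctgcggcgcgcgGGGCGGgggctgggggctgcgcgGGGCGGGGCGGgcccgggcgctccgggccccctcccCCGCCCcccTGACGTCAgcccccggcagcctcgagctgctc
ICAM1: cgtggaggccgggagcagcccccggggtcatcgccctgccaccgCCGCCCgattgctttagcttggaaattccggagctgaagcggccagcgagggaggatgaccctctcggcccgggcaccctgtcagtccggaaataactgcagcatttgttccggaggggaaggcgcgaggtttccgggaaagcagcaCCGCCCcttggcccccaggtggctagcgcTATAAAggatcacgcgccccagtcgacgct
The CEACAM1 window held 2 SOX cores, at 100 and 30 bases before the start, 1 core of the MITF type at 41 bases and 1 GC box at 52 bases. The MCAM window had a GC content of 79.6% and held 5 GC boxes and 1 cyclic AMP response element, 32 bases before the start. The ICAM1 window held a TATA box 30 bases before the start and 2 GC boxes, and the NRCAM window, with a GC content of 78.4%, held 2 GC boxes and none of the other marked motifs. The windows of the other NRCAM starts, not printed here, differed: the second held a SOX core at 118 bases and an MITF core at 30 bases, and the third a SOX core at 11 bases and a cyclic AMP response element at 47 bases. For comparison, 34943 RefSeq promoter windows of this length were searched, with 1 chromosome left out. Of these, 13.7% held the SOX core, 9.45% the MITF core, 1.63% the cyclic AMP response element, 42.5% the GC box and 10.8% the TATA box. An E-box (CANNTG, which includes the MITF core) and an AP-2 motif (GCCNNNGGC) were also searched and are not marked, and 61.8% and 19.7% of windows held them. Such matches describe the letters of the window and not binding.

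Across the 9 measured members, RIPK4 knockout cells had far less CEACAM1 and NRCAM mRNA, more NCAM1 mRNA and smaller shifts in the abundant members. Changed genes were those with an adjusted p under 0.05 that also differed 1.5-fold or more, by the quasi-likelihood test of edgeR, with p-values adjusted by Benjamini-Hochberg over the 14443 genes that entered the fit. By this rule 1 member, NCAM1, rose and 2, CEACAM1 and NRCAM, fell. That is 33.3% of the 9 tested members, where 9.04% of all tested genes were called (4.39% higher and 4.65% lower). On the adjusted p alone, 7 members passed, 2 higher and 5 lower (77.8%), where 16.6% of all tested genes did (8.40% higher and 8.24% lower). The median log2 fold change of the members was -0.35, against -0.00 over all genes tested, and the median of its absolute value was 0.37 against 0.18. For 8 of the 9 members, all but JAM3, the normalised counts of A375neg and A375RIPK4.KO were apart (88.9%), where this held for 36.5% of all tested genes. A bulk count cannot tell fewer cells carrying a transcript from less transcript per cell.

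**Figure D1:**
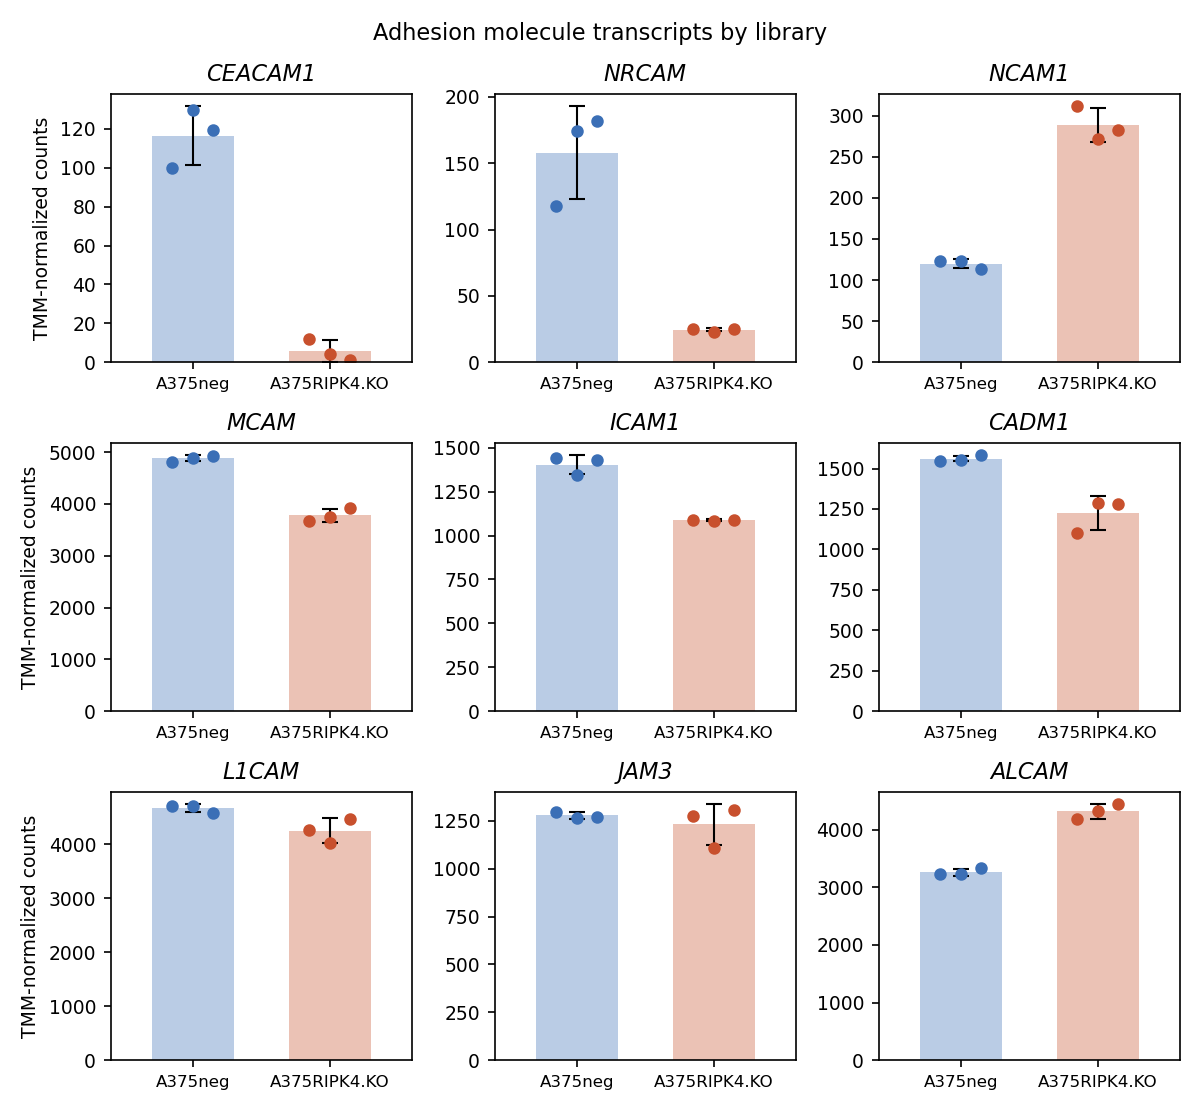
TMM-normalised counts of the 9 measured members in each library (points) for A375neg and A375RIPK4.KO, 1 panel a gene with its own axis from 0, with the group mean as a bar and the SD as an error bar (n = 3). The CEACAM1 points of A375RIPK4.KO lie at 12.0, 4.18 and 1.01, all far below the A375neg points, and only for JAM3 do the groups share a range.

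CEACAM1 (chr19:42507306-42528481, minus strand) encodes a homophilic adhesion receptor whose long cytoplasmic tail carries inhibitory motifs that recruit SHP phosphatases. It had 100, 141 and 126 raw counts in the A375neg libraries and 11, 4 and 1 in the A375RIPK4.KO libraries. Every knockout library was thus far below every control library. The normalised count was 116.4 ± 15.2 (SD, n = 3) in A375neg and 5.74 ± 5.67 (SD, n = 3) in A375RIPK4.KO. The log2 fold change was -4.34 (SE 0.51, 95% interval -5.49 to -3.19), 20.2-fold lower, with an adjusted p of 0.000441 from edgeR's quasi-likelihood test. Its size depended on A375RIPK4.KO replicate 1, which held most of the remaining counts: without that library the log2 fold change was -5.43, and across all libraries left out in turn it ran from -5.43 to -3.83. The gene overlaps LIPE-AS1 on the opposite strand, which had 5, 3 and 3 raw counts in A375neg and 1 in each A375RIPK4.KO library. Whether the counting used strand is not given in the sources used here, so reads of this pair may be mixed.

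NRCAM (chr7:108147649-108456720, minus strand) belongs to the L1 family, whose cytoplasmic tails bind ankyrins. Raw counts were 118, 189 and 192 in A375neg and 23, 22 and 25 in A375RIPK4.KO. The A375neg libraries varied among themselves by more than the knockout libraries did, yet the lowest of them was still several times the highest knockout library. Normalised counts averaged 158.0 ± 34.9 (SD, n = 3) in A375neg and 24.5 ± 1.32 (SD, n = 3) in A375RIPK4.KO. This was 6.43-fold lower, a log2 fold change of -2.68 (SE 0.23, 95% interval -3.22 to -2.15) with an adjusted p of 8.3e-05 (edgeR). L1CAM (chrX:153861514-153886173, minus strand), the founding member of that family and a homophilic receptor that also binds integrins, behaved differently. Its raw counts were 4709, 5110 and 4831 against 3903, 3849 and 4409. After normalisation every knockout library lay below every control library, with means of 4251 ± 226.7 (SD, n = 3) and 4665 ± 74.3 (SD, n = 3), but the log2 fold change of -0.13 (SE 0.06, 95% interval -0.27 to 0.00) did not pass the test (adjusted p = 0.178, edgeR). Its antisense gene L1CAM-AS1 had at most 3 raw counts in any library.

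NCAM1 (chr11:112961420-113278436, plus strand), the neural cell adhesion molecule CD56, whose binding is weakened when polysialic acid is attached to it, was the member that rose past the fold limit. It had 123, 134 and 120 raw counts in A375neg and 285, 260 and 279 in A375RIPK4.KO. The spread within each group was small beside the gap between them. Normalised counts were 120.1 ± 5.47 (SD, n = 3) and 288.6 ± 20.7 (SD, n = 3). The gene was 2.4-fold higher in the knockout, a log2 fold change of 1.26 (SE 0.13, 95% interval 0.96 to 1.57) with an adjusted p of 0.000246 (edgeR).

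ALCAM (chr3:105366909-105576900, plus strand), a homophilic receptor known as CD166 that also binds CD6 on T cells, was the other member to rise on the adjusted p. Its raw counts were 3230, 3496 and 3508 in A375neg and 3833, 4134 and 4376 in A375RIPK4.KO, with no overlap. The log2 fold change of 0.40 (SE 0.06, 95% interval 0.28 to 0.53, adjusted p = 0.00115 by edgeR), a gain of 32.4%, stayed under the fold limit. MCAM (chr11:119308529-119317130, minus strand), the melanoma cell adhesion molecule CD146, went the other way. It had 4816, 5307 and 5205 raw counts in A375neg and 3361, 3592 and 3863 in A375RIPK4.KO. Every knockout library was below every control library, and the level fell by 22.5%, a log2 fold change of -0.37 (SE 0.06, 95% interval -0.49 to -0.24, adjusted p = 0.00202 by edgeR). MIR6756, a microRNA gene inside MCAM, had 4 raw counts in A375RIPK4.KO replicate 1 and 0 in every other library.

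ICAM1 (chr19:10271120-10286615, plus strand), an inducible ligand of the leukocyte integrin LFA-1, had 1440, 1457 and 1507 raw counts in A375neg and 997, 1035 and 1073 in A375RIPK4.KO. The normalised counts of the knockout libraries were close together, at 1086 ± 5.0 (SD, n = 3), and all lay below those of A375neg, at 1403 ± 53.4 (SD, n = 3). The level fell by 22.6%, with a log2 fold change of -0.37 (SE 0.06, 95% interval -0.51 to -0.23) and an adjusted p of 0.00344 (edgeR). CADM1 (chr11:115169236-115504415, minus strand), a cell adhesion molecule known as a tumour suppressor in lung cancer, fell by 21.7%. Its raw counts were 1549, 1687 and 1669 in A375neg and 1007, 1235 and 1262 in A375RIPK4.KO. The first knockout library was the lowest, and the groups did not overlap. Its log2 fold change was -0.35 (SE 0.07, 95% interval -0.52 to -0.18, adjusted p = 0.0117 by edgeR), and without A375neg replicate 3 the adjusted p was 0.0525. MCAM, ICAM1 and CADM1 thus fell by similar amounts, all under the fold limit.

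JAM3 (chr11:134069072-134152001, plus strand) encodes the junctional adhesion molecule JAM-C, which binds JAM-B on neighbouring cells. It had 1299, 1373 and 1342 raw counts in A375neg and 1169, 1064 and 1288 in A375RIPK4.KO. After normalisation the highest library was a knockout library, so the groups overlapped. The log2 fold change was -0.05 (SE 0.08, 95% interval -0.23 to 0.12, adjusted p = 0.68 by edgeR), and it was 0.02 without A375RIPK4.KO replicate 2, the library that stood apart. NCAPD3, a condensin subunit gene that overlaps JAM3 on the opposite strand, had a log2 fold change of 0.02 (adjusted p = 0.881, edgeR).

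**Figure D2:**
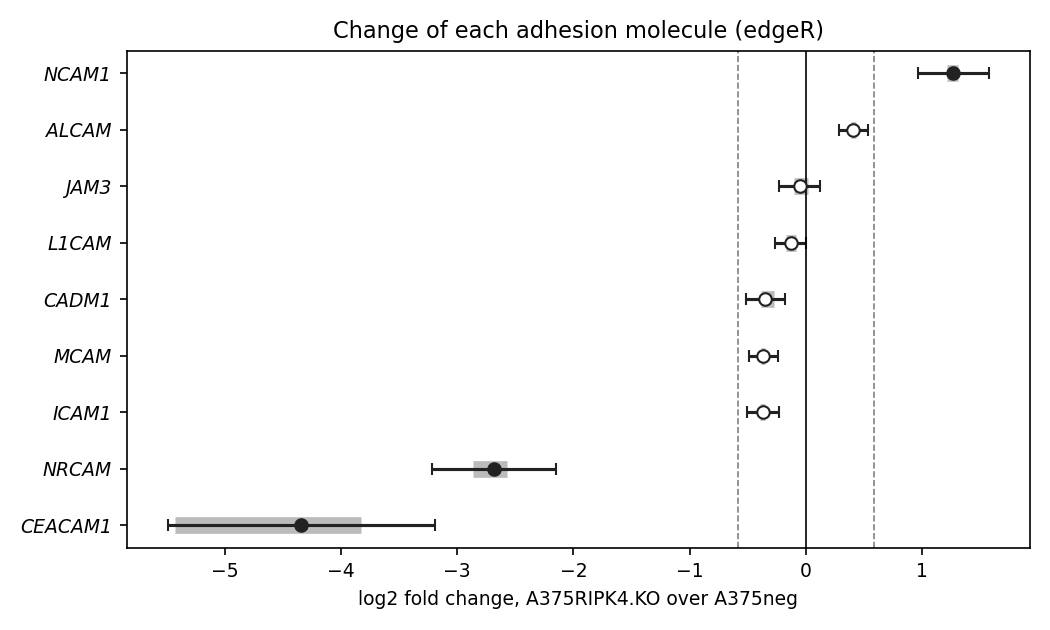
Log2 fold change of A375RIPK4.KO over A375neg for the 9 members (points) with 95% intervals (bars), ordered by value. Filled points mark called members, grey bands the range with each library left out in turn and dashed lines the 1.5-fold limits; the intervals of CEACAM1, NRCAM and NCAM1 lie wholly beyond these limits and those of L1CAM and JAM3 reach 0.

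Levels of different genes were set side by side as CPM (counts scaled to library size) per kilobase of exon. In A375neg the order was MCAM (26.8), L1CAM (26.2), ALCAM (18.5), ICAM1 (15.4), JAM3 (9.56), CADM1 (5.78), CEACAM1 (0.859), NRCAM (0.786) and NCAM1 (0.384). MCAM and L1CAM overlapped between libraries, as did CEACAM1 and NRCAM, and the other neighbours in this order did not. In A375RIPK4.KO the order was ALCAM (24.5), L1CAM (23.8), MCAM (20.8), ICAM1 (12.0), JAM3 (9.20), CADM1 (4.52), NCAM1 (0.923), NRCAM (0.122) and CEACAM1 (0.0423). There, only ALCAM and L1CAM overlapped. ALCAM thus moved from the third place to the first, and MCAM from the first to the third, while NCAM1 went from the last place to above NRCAM and CEACAM1.

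The summed level of the 9 members was 104 to 105 CPM per kilobase in the A375neg libraries and 93.6 to 99.3 in the A375RIPK4.KO libraries. ALCAM made up 17.6 to 18.0% of this sum in A375neg and 25.1 to 26.2% in A375RIPK4.KO. MCAM made up 25.4 to 25.8% and 21.3 to 22%, and L1CAM held a similar part of the sum in both groups, 24.5 to 25.5% and 24 to 25.3%. The 3 members that passed the fold limit were each at most 1.05% of the sum in every library, so the largest fold changes were found among the least abundant members.

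**Figure D3:**
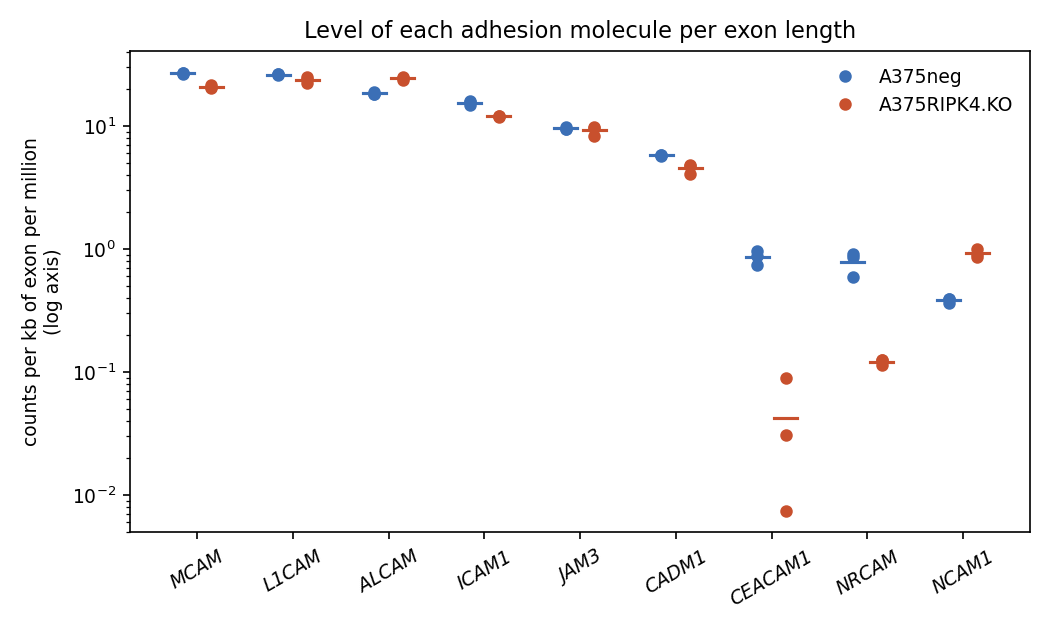
Level of each member in CPM per kilobase of exon (log axis) in the A375neg and A375RIPK4.KO libraries (points), with the group mean as a short line and the members in the order of A375neg. The group means of CEACAM1 and NRCAM drop from 0.859 to 0.0423 and from 0.786 to 0.122, that of NCAM1 rises from 0.384 to 0.923, and those of the 6 other members change little on this axis.

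Of 46 further adhesion genes of the immunoglobulin superfamily, 31 had a row and 23 were tested, of which edgeR called 0 higher and 4 lower, as did DESeq2, where edgeR called 4.39% of all tested genes higher and 4.65% lower. On the adjusted p alone 1 was higher and 6 were lower (8.40% and 8.24% of all tested genes), on the unadjusted p 2 were higher and 6 lower, and the median log2 fold change was 0.03. NCAM2, the closest relative of NCAM1, fell where NCAM1 rose: it had 414, 387 and 444 raw counts in A375neg and 215, 219 and 212 in A375RIPK4.KO (log2 fold change -0.81, SE 0.11, adjusted p = 0.00132 by edgeR). PECAM1, a homophilic receptor of endothelial cells and platelets, had 21, 23 and 24 raw counts against 4, 5 and 5 (log2 fold change -2.12, SE 0.39, adjusted p = 0.00556 by edgeR). NECTIN4, a nectin of epithelial junctions, fell by 1.5 on the log2 scale (SE 0.33, adjusted p = 0.0132 by edgeR), and CXADR, the coxsackievirus and adenovirus receptor of tight junctions, fell by 1.0 (SE 0.22, adjusted p = 0.0131 by edgeR). Neither passed in every subset of libraries: the adjusted p of NECTIN4 was 0.072 without A375neg replicate 2, and that of CXADR was 0.0511 without A375neg replicate 2 and 0.0593 without A375RIPK4.KO replicate 3. All groups of raw counts of these 4 genes were apart. Normalised counts of the groups were apart for 9 of the 23 tested genes of this list, where this held for 36.5% of all tested genes. Of the 11 other CEACAM genes 1 had a row, with a log2 fold change of 0.28, and the 5 nectins and nectin-like genes ran from -1.5 to 0.49.

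Markers of other cell types were examined because several of these molecules are also carried by endothelial, blood and epithelial cells. The 4 endothelial markers summed to 300 to 406 normalised counts in A375neg and 439 to 482 in A375RIPK4.KO, nearly all of it KDR. Of them 2 were tested, and edgeR called 1 higher, KDR, and 1 lower, PECAM1. Of all tested genes 4.39% were called higher and 4.65% lower. The log2 fold change of KDR, 0.60 (SE 0.14, adjusted p = 0.0216 by edgeR), was just past the fold limit of 0.585. The defining marker CDH5 had 7, 7 and 14 raw counts in A375neg and 4, 2 and 0 in A375RIPK4.KO, lower in every knockout library like PECAM1, and VWF had 4, 5 and 0 against 3, 3 and 1. Neither had enough counts to be tested. Of 5 leukocyte markers 3 had a row, with sums of 38.7 to 49.3 in A375neg and 0 to 17.5 in A375RIPK4.KO, mostly LYZ. Only LYZ was tested, with 38, 36 and 37 raw counts in A375neg and 13, 0 and 3 in A375RIPK4.KO. It was called lower (log2 fold change -2.62, SE 0.73, adjusted p = 0.0382 by edgeR), as by DESeq2, where edgeR called 4.65% of all tested genes lower. PTPRC, the pan-leukocyte marker, had 0, 0 and 3 raw counts in A375neg and 0, 0 and 1 in A375RIPK4.KO. The 3 epithelial markers with a row summed to 22094 to 23099 in A375neg and 21295 to 26132 in A375RIPK4.KO, mostly KRT18, whereas EPCAM had 1 to 6 raw counts. KRT8, with 1066 to 1661 raw counts, passed on the adjusted p (log2 fold change -0.35, adjusted p = 0.0218 by edgeR) but not the fold limit. Of the 3 mesenchymal and 2 tested epithelial markers edgeR called 0, as did DESeq2, and on the unadjusted p 2 mesenchymal markers were higher and 1 epithelial marker, KRT8, was lower. The part of such cells in the results was not tested.

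Of 35 ligands, counter-receptors, cytoplasmic partners, sheddases and modifying enzymes of the members, 28 were tested, of which 2 were called higher and 4 lower, beside 4.39% and 4.65% of all tested genes. The median log2 fold change was -0.02. Among the integrins, ITGA4, whose product pairs with the beta 1 chain to form the receptor of VCAM1, rose. Its raw counts were 1532, 1541 and 1784 in A375neg and 2735, 2669 and 3073 in A375RIPK4.KO (log2 fold change 0.94, SE 0.08, adjusted p = 6.77e-05 by edgeR). ITGB1, the gene of that beta 1 chain, was not called (log2 fold change 0.01, SE 0.10, adjusted p = 0.968 by edgeR). ITGB2, the beta chain of the ICAM1 receptor LFA-1, fell from 124, 147 and 127 raw counts to 26, 31 and 22 (log2 fold change -2.19, SE 0.21, adjusted p = 0.000156 by edgeR). Of the other ICAM1 counter-receptor genes, ITGAL had no row and ITGAM had 0 to 5 raw counts per library. A link between ITGB2 and the leukocyte sum given above was not tested. The groups of ITGA4 and ITGB2 were far apart. Normalised counts of the groups were apart for 11 of the 28 tested partners, where this held for 36.5% of all tested genes. AFDN, the scaffold afadin that binds nectins and JAM proteins, rose by 0.65 on the log2 scale (SE 0.10, adjusted p = 0.00192 by edgeR), and by 0.54, under the fold limit, without A375RIPK4.KO replicate 1.

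ST8SIA4 encodes a polysialyltransferase that acts on NCAM1. It had 208, 236 and 255 raw counts in A375neg and 40, 54 and 68 in A375RIPK4.KO, and fell by 1.98 on the log2 scale (SE 0.20, adjusted p = 0.000178 by edgeR) where its substrate's transcript rose. NRP1, a neuropilin that forms receptor complexes with L1CAM, had 2671, 2928 and 3050 raw counts against 1143, 1223 and 1370 (log2 fold change -1.08, SE 0.07, adjusted p = 1.07e-05 by edgeR). ANK3, an ankyrin that anchors L1-family tails to the spectrin skeleton, had 667, 647 and 670 against 338, 380 and 370 (log2 fold change -0.73, SE 0.08, adjusted p = 0.00041 by edgeR). ANK2, the other ankyrin gene of the list, had 132, 101 and 117 against 109, 76 and 114 and was not called (log2 fold change -0.10, SE 0.22, adjusted p = 0.814 by edgeR). ST8SIA4, NRP1 and ANK3 were lower in every knockout library than in any control library, and they are among the 11 partners given above whose groups were apart. Of 14 transcription factors and cytokines known to act on members, 12 were tested and 1 was called, a share near the 9.04% of all tested genes. SOX9, a SOX factor of neural crest and cartilage, had 19, 12 and 14 raw counts in A375neg and 87, 72 and 113 in A375RIPK4.KO (log2 fold change 2.71, SE 0.29, adjusted p = 0.000277 by edgeR). MITF and IRF1, named after their values were seen, passed on the adjusted p under the fold limit, each with a log2 fold change of -0.44 (adjusted p = 0.0449 and 0.0118 by edgeR).

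**Figure D4:**
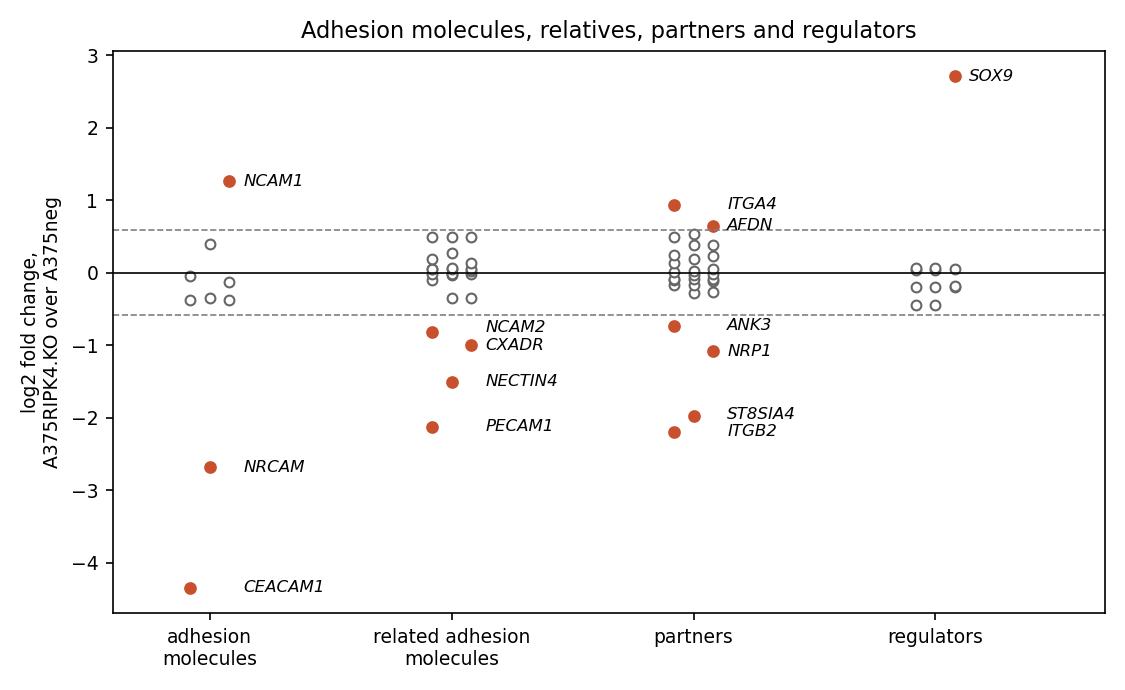
Log2 fold change of A375RIPK4.KO over A375neg for each tested gene (points) of the members, related adhesion molecules, partners and regulators, with the 1.5-fold limits as dashed lines and called genes filled and named. CEACAM1 at -4.34 and SOX9 at 2.71 are the lowest and highest points, and most genes of each list lie between the limits.

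The genomic surroundings of the members were described because the knockout was 1 clone and 4 members, NCAM1, CADM1, MCAM and JAM3, lie on the long arm of chromosome 11. Among the 10 tested genes on either side of CEACAM1, the median log2 fold change was -0.02 and 1 of 20 was called. Around NRCAM the median was 0.06, with 1 of 20 called higher and 1 called lower, and values from -2.67 to 4.97. Around NCAM1 it was -0.05, with 1 called higher and 3 lower. The medians around these 3 members were near 0, but single neighbours of NCAM1 ran from -3.04 to 1.78. Whether the members changed together with their surroundings was not tested. The 115 tested genes from NCAM1 to JAM3 had a median of -0.05. Of them 2 were called higher and 9 lower, where 4.39% of all tested genes were called higher and 4.65% lower. In all this was a share near the 9.04% called among all tested genes, but lower calls outnumbered higher ones in the stretch. Around the other 6 members the medians ran from -0.18 at ALCAM to 0.14 at MCAM and JAM3, and JAM3, near the end of the chromosome, had 16 neighbours. RIPK4, the target of the guide, lies on chromosome 21. The other tested genes of the lists on that chromosome were NCAM2, CXADR, ITGB2 and S100B. All of them were called lower by edgeR, where 4.65% of all tested genes were, with log2 fold changes from -2.19 at ITGB2 to -0.81 at NCAM2. CXADR lost its call without A375neg replicate 2 and without A375RIPK4.KO replicate 3. This grouping across lists was not planned, and the share of called genes on chromosome 21 as a whole was not counted. The neighbours of RIPK4 were not examined, and whether these falls go with its chromosome was not tested.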

How the data were processed

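Poly(A)-selected RNA was sequenced from directional libraries of 3 A375neg and 3 A375RIPK4.KO samples. The deposited raw counts per gene, whole numbers without normalization, were made by the authors on GRCh38.p13. The submitters' processing notes name cutadapt, FastQC, HISAT2, HTSeq and DESeq2, and the strand setting of the counting is not given in the sources used here. Normalized counts and the columns of the authors' own comparison (fold changes, test scores and p-values) were left out.

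Counts were fitted in R 4.3.3 with edgeR 4.0.16 (filterByExpr, TMM and the quasi-likelihood test, with Benjamini-Hochberg adjustment across the 14443 genes kept), after a test of the script on simulated data. Genes were called at an adjusted p under 0.05 and at least 1.5-fold. The paper gives similar limits for its heatmap of genes of amoeboid migration and other limits elsewhere, so counts of called genes are not comparable throughout. The 95% intervals come from the same fit. Fold changes over A375neg are given on the log2 scale. Normalised counts are TMM-scaled to the mean library. Exon lengths came from GENCODE, and gene coordinates and promoters from RefSeq GRCh38.p14, in which 98.34% of table positions overlapped the gene of the same name. No lower count limit was set beyond filterByExpr.

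The members and lists were chosen with earlier results of these data known, and the lists of relatives, partners, regulators and markers were written from general knowledge. Levels of different genes were compared as CPM per kilobase of exon. The text names every member, RIPK4, called genes of the lists (at most 10 a list, by smallest adjusted p), markers and genes that overlap a member. A few uncalled genes of the lists are named beside them. Same-numbered replicates did not deviate together (r = 0.08, 0.04 and -0.01), so the number was not used as a block. Alternatives were DESeq2 1.42.0 (test, or size factors in edgeR), no filter or a mean of at least 50 counts, the block, removal of the exon-length trend, other fold limits and leaving out each library. P-values measure the spread between samples of 1 clone and 1 control subline.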

Additional observations from a re-analysis of the deposited data

How the results depend on the processing

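Across the 250 refitted log2 fold changes of single genes, 245 kept their direction and their call or lack of one, 4 lost their call (in CXADR, NECTIN4 and AFDN) and 1 changed sign: JAM3 ran from -0.10 to 0.02 with 1 library left out, the highest without A375RIPK4.KO replicate 2. With no limit on the fold change, 7 members were called, 2 higher and 5 lower, with 7 relatives and 3 regulators. With a log2 fold change beyond 1.5, 0 members were called higher, and 2 relatives and 2 partners were called. The count of relatives was 2 when only genes averaging 50 counts or more were fitted, where PECAM1 and NECTIN4 were not tested, and ran from 2 to 4 with 1 library left out, the lowest without A375neg replicate 2. With the replicate number as a block, 3 members were called as before, CEACAM1 had a log2 fold change of -4.41 and NRCAM of -2.66, and the block changed no call among the members, relatives, partners and regulators named. DESeq2, its size factors, no filter and removal of the exon-length trend left the counts of called members, relatives, partners and regulators within 1.5 times, whereas DESeq2 called 1 melanocytic marker lower against 2. Other settings were not run on the marker lists and neighbours. The 11, 4 and 1 raw counts of CEACAM1 in A375RIPK4.KO limit how precisely its fall can be given.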
